A study of Mus musculus with 4 samples.

Results

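Translation initiation factors are the proteins that place a ribosome at the start codon of a messenger RNA. Their genes were taken by name: every feature whose symbol begins with Eif and a family number from 1 to 6 and that has an exon length, leaving out the eIF2 kinases, the argonaute genes that carry old Eif2c names, and pseudogenes. These were 51 of 28032 features with an exon length, standing for 50 gene symbols because Eif4e3 is listed as 2 features. Of the 51, 49 passed the filter on low counts and were among the 11113 features tested. Eif4e1b had 0 exon reads in every library and Eif4ebp3 had 1 read in each of 2 libraries, so neither was tested.

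Exon reads were counted in 4 RNA-seq libraries of regulatory T cells (Tregs), the CD4+Foxp3+ T cells that restrain other immune cells, sorted by flow cytometry from C57BL/6 mice aged 8 weeks. The groups were Csnk2b-deficient Tregs (genotype Csnk2b-/-) and wild-type (WT) Tregs, each with 1 library from the spleen and 1 from the tracheal lymph nodes, here called the nodes. Csnk2b encodes CK2 beta, the regulatory subunit of the protein kinase CK2. The labels do not say which cells of the mice carried the deletion, the sex of the mice, or whether a library came from 1 animal or a pool. The protocols name different RNA and library kits for 2 numbered pairs of samples and do not tie those numbers to libraries, so kit cannot be told apart from tissue, and whether it also differed between the genotypes is not known.

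In textbook order, eIF1, eIF1A and eIF3 prepare the small ribosomal subunit, and eIF2 brings the initiator tRNA, with eIF2B recharging eIF2 with GTP. The eIF4 group binds the cap and unwinds the leader: eIF4E holds the cap, eIF4G is the scaffold and eIF4A the helicase, while 4E-binding proteins block eIF4E. eIF5 triggers GTP hydrolysis on eIF2, eIF5B joins the subunits, and eIF6 keeps the large subunit apart until needed. CK2 is known to phosphorylate several of these proteins, among them eIF2 beta (Eif2s2), eIF5 and eIF3j. T cells raise their protein synthesis when they are activated. The libraries measure RNA and not these phosphorylations or protein amounts.

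The libraries held 4877882 exon reads in Csnk2b-deficient and 6750695 in WT spleen Tregs, and 5506113 in Csnk2b-deficient and 4737814 in WT lymph node Tregs. Genes with at least 1 read numbered 12157 to 15515, with the fewest in WT lymph node Tregs. Csnk2b itself had 148 reads in Csnk2b-deficient and 649 in WT spleen Tregs, and 283 in Csnk2b-deficient and 667 in WT lymph node Tregs (log2 fold change -1.54 ± 0.26, the SE over 2 libraries per genotype, adjusted p = 0.0658 by edgeR). Summed levels of 6 Treg markers were 3509 and 5092 CPM (counts scaled to the library) in Csnk2b-deficient spleen and lymph node Tregs, against 4003 and 5244 CPM in WT. Foxp3 was the 1 of the 6 that was called, with 2160 and 562 reads in Csnk2b-deficient spleen and lymph node Tregs against 6395 and 2334 in WT (adjusted p = 0.0375), and 25.9% of its reads uniquely placed. Reads of the Y-linked genes Ddx3y, Kdm5d and Uty were present in all 4 libraries, and Xist had 1 read in Csnk2b-deficient spleen Tregs and 0 in the others.

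Summed markers of myeloid, B, erythroid and CD8 T cells were higher in the nodes than in the spleen in both genotypes. The sum of 4 myeloid markers was 6.57 CPM in Csnk2b-deficient and 9.77 CPM in WT spleen Tregs, and 294 CPM in Csnk2b-deficient and 46.2 CPM in WT lymph node Tregs. It was mostly Lyz2 in the nodes and mostly Itgam in WT spleen Tregs, with Cd14 at 0 reads in 3 libraries and 1 in the fourth. The sum of 4 B cell markers was 17.0 and 98.7 CPM in Csnk2b-deficient spleen and lymph node Tregs and 15.6 and 148 CPM in WT, mostly Cd79b. The sum of 5 erythroid markers was at most 0.692 CPM in the spleen, and 7.23 CPM in Csnk2b-deficient and 70.4 CPM in WT lymph node Tregs. CD8 T cell markers (2 genes) summed to 12.5 and 39.0 CPM in Csnk2b-deficient spleen and lymph node Tregs and to 16.4 and 52.5 CPM in WT. NK cell markers (2 genes, with Ncr1 at 0) summed to 2.77 and 7.02 CPM in Csnk2b-deficient spleen and lymph node Tregs and to 4.82 and 1.22 CPM in WT, and so were lower in the nodes in WT, as was the myeloid marker Itgam (0.489 CPM in the nodes against 5.71 CPM in the spleen). These sums differ between the tissues, and in the nodes between the genotypes, and their part in the values that follow was not tested. In bulk libraries, fewer cells of a type and less RNA per cell cannot be told apart.

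RefSeq promoter windows, running from 250 bases before a gene's start to 50 after it (build GRCm38.p6), were found for 39 of the 50 symbols. Those with no entry were Eif1a, Eif2b3, Eif3e, Eif3h, Eif3i, Eif4e1b, Eif4e3, Eif4ebp1, Eif4ebp3, Eif4g2 and Eif6. The E-box CACGTG, the letters bound by MYC, was in 10 of 39 members (25.6%) against 8.09% of 27025 genes. The 27025 are all genes with a window, whether or not they were tested here, so the shares are not matched for expression. A gene counted if the window of any of its listed starts matched, and the number of starts was not matched either. It was in Eif1b, Eif3a, Eif3f, Eif3k, Eif4a1, Eif4e, Eif4g1, Eif4h, Eif5a and Eif5a2. The ETS-type letters CCGGAAG were in 15 of 39 (38.5%) against 9.93% of genes. Both motifs were searched on both strands, and a site of one cannot overlap a site of the other. A pyrimidine run, sought on the gene's strand as a C within 5 bases of the start followed by at least 4 C or T letters, was in 10 of 39 (25.6%) against 21.2% of genes. Such runs at the start of the RNA mark the transcripts that mTORC1 is known to control, and a match here is a description of letters only. A run can overlap the reverse form of the ETS-type letters.

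Windows of 100 bases, 80 before the start and 20 from it, are shown for 6 members that the results turn on. Eif4e2 has 3 listed starts and Eif4e has 2, and for each the window with the most marked letters was picked. Their windows were thus chosen for carrying a motif. Eif3f and Eif4e2 had the smallest unadjusted p for genotype in the eIF3 and eIF4E groups, Eif2s3x and Eif2s3y are an X and Y pair, and Eif4e and Eif4g1 had the highest and lowest tissue difference among the members called. Capitals mark the E-box, the ETS-type letters or the pyrimidine run, 5′ to 3′ on the strand given.
Eif3f promoter, chr7:108934335-108934434 (+ strand): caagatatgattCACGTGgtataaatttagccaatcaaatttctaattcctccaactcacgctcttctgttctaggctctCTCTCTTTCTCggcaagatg
Eif4e2 promoter, chr1:87213831-87213930 (+ strand): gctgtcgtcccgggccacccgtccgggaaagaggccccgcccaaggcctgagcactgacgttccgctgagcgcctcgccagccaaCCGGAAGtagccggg
Eif2s3x promoter, chrX:94212632-94212731 (- strand): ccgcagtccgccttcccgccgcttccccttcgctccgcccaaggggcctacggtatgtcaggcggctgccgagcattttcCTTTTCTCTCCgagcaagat
Eif2s3y promoter, chrY:1010515-1010614 (+ strand): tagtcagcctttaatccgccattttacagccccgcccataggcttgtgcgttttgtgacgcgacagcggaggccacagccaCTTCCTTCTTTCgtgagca
Eif4e promoter, chr3:138527188-138527287 (+ strand): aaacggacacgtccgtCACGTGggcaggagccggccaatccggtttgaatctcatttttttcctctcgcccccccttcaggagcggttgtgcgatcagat
Eif4g1 promoter, chr16:20672647-20672746 (+ strand): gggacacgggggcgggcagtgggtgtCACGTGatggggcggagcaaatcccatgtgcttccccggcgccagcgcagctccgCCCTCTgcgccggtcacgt
Eif3f carries both an E-box and a pyrimidine run, as does Eif4g1. Eif2s3x and Eif2s3y each carry a pyrimidine run at the start and neither other motif in the stretch shown.

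The members were abundant transcripts. Their exon reads made up 0.940% of all exon reads in Csnk2b-deficient and 0.952% in WT spleen Tregs, and 1.18% in Csnk2b-deficient and 1.24% in WT lymph node Tregs. Per length, as RPKM (reads per kilobase of exon, scaled to the library), the median tested member stood at 36.2 in Csnk2b-deficient and 33.9 in WT spleen Tregs, where the median of all tested genes was 9.14 and 9.25. In the nodes the median member stood at 46.2 in Csnk2b-deficient and 50.4 in WT Tregs, where all tested genes had medians of 7.71 and 8.05. By mean RPKM over the 4 libraries the order began with Eif3e, Eif3h and Eif3k, all subunits of eIF3, and then Eif4a2, Eif3l, Eif3d and Eif5a.

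Eif3e (chromosome 15, 43081586 to 43114282, mm9) had 187 and 196 RPKM in the spleen and 796 and 896 RPKM in the nodes, each pair given as Csnk2b-deficient and then WT. Eif3h had 204 and 231 RPKM in the spleen and 455 and 567 RPKM in the nodes in the same order. The order of these subunits thus depended on the tissue: Eif3h was the top member in both spleen libraries and Eif3e in both lymph node libraries. Near the low end Eif5a2, an isoform gene of eIF5A, ranked 48 of the 51, with 3.08 and 1.63 RPKM in the spleen and 0.834 and 1.96 RPKM in the nodes. The longer Eif4e3 listing ranked 47 and the shorter 49, ahead of the untested Eif4ebp3 and Eif4e1b, and 0.610% of the reads of the longer one (chromosome 6, 99207478 to 99616791) and 0% of those of the shorter one (chromosome 6, 99575129 to 99616765) were uniquely placed. The listings overlap, so their counts are uncertain.

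**Figure D1:**
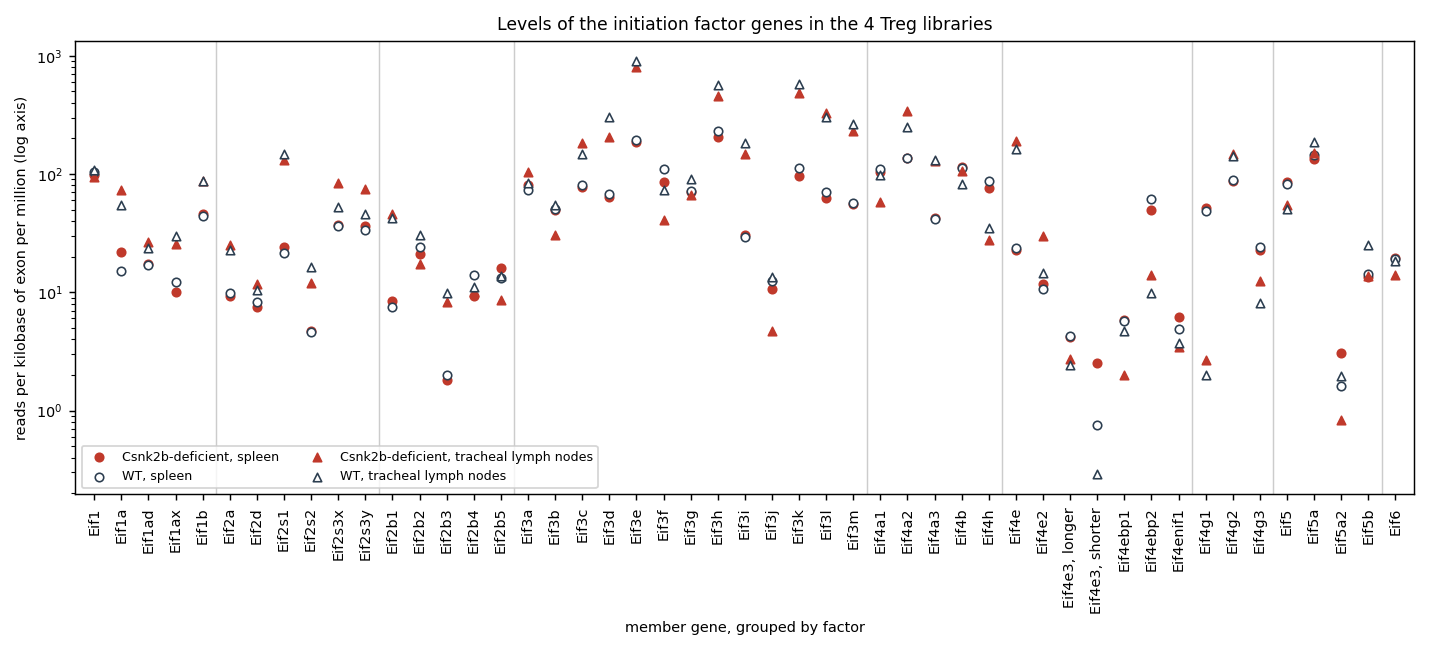
RPKM of every tested member in the 4 libraries on a log axis, grouped by role, with Csnk2b-deficient libraries as filled and WT libraries as open marks, circles for the spleen and triangles for the nodes, and a value of 0 (shorter Eif4e3 listing, Csnk2b-deficient lymph node Tregs) not drawn. Most members sit near each other by genotype within a tissue, while Eif4g1 and Eif4e lie far apart between the tissues.

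Setting Csnk2b-deficient against WT Tregs asks whether these transcripts depend on the beta subunit of CK2. With tissue in the edgeR fit, 0 of 49 members were called higher and 0 lower at an adjusted p below 0.05. Over all 11113 genes the calls were 0.126% higher and 0.018% lower, so few genes were called at all. At an unadjusted p below 0.05 there were 3 members, Eif4e2 with higher and Eif3f and Eif3j with lower reads, or 6.12% against 4.88% of all genes. DESeq2 and limma-voom likewise called 0 members. At an unadjusted p below 0.05 DESeq2 had 1 member (2.04%) against 4.35% of all genes, and limma-voom had 3 (6.12%) against 6.78%. The median log2 fold change of the members was -0.01, against 0.01 for all genes, and the range was -0.84 to 0.60. The spread behind these errors comes from how the genotype difference varied between the tissues, moderated over genes, since each genotype and tissue had 1 library.

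Within a tissue, each member's genotype ratio is given with an exact binomial 95% interval that covers counting error only, without a test. In the spleen the members' ratios lay close together. There 2 members (4.08%) were over 1.5-fold higher in Csnk2b-deficient Tregs and 1 (2.04%) was over 1.5-fold lower, against 6.66% and 5.89% of all genes. In the nodes 4 members (8.16%) were past that fold on the higher side and 10 (20.4%) on the lower side, against 26.4% and 21% of all genes. The 10 include the shorter Eif4e3 listing, at 0 against 3 reads, and are 9 (18.4%) without it. On uniquely placed reads 1 member was past 1.5-fold on the higher side and 0 on the lower side in the spleen, and 3 and 8 in the nodes. Eif2b4 in the spleen, and Eif2s3x and Eif4a1 in the nodes, were then within it, and the Eif4e3 listings had no ratio where neither library of a tissue held a unique read. The interquartile range of the log2 ratios was 0.17 in the spleen and 0.61 in the nodes, with 0.34 and 1.11 for all genes. Ratios on few reads vary more by counting, and the members had a higher median RPKM than all genes. The shares past 1.5-fold and the ranges are thus not matched for expression. Besides genotype, the 2 lymph node libraries differed in genes with a read, 14335 in Csnk2b-deficient and 12157 in WT Tregs, and in the myeloid sum, 294 against 46.2 CPM, and the part of these in the ratios was not tested.

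The members' ratios in the 2 tissues were weakly related. In both tissues 12 members (24.5%) had higher values and 18 (36.7%) lower values in Csnk2b-deficient Tregs, against 27.5% and 29.2% of all genes, and 19 members had opposite directions. Across the 48 members with a finite ratio in each tissue, the log2 ratios had a Pearson correlation of 0.02 and a Spearman correlation of 0.23. These points share their libraries and their scaling. For 23 members (46.9%) the counting intervals of the 2 tissues did not overlap, against 39.3% of all genes. For 4 members (8.16%) the directions were opposite with an interval off 1 in each tissue, against 5.59% of all genes. Counting intervals narrow as reads rise, and the members had a higher median RPKM than all genes. The shares that rest on intervals are thus not matched for expression.

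**Figure D2:**
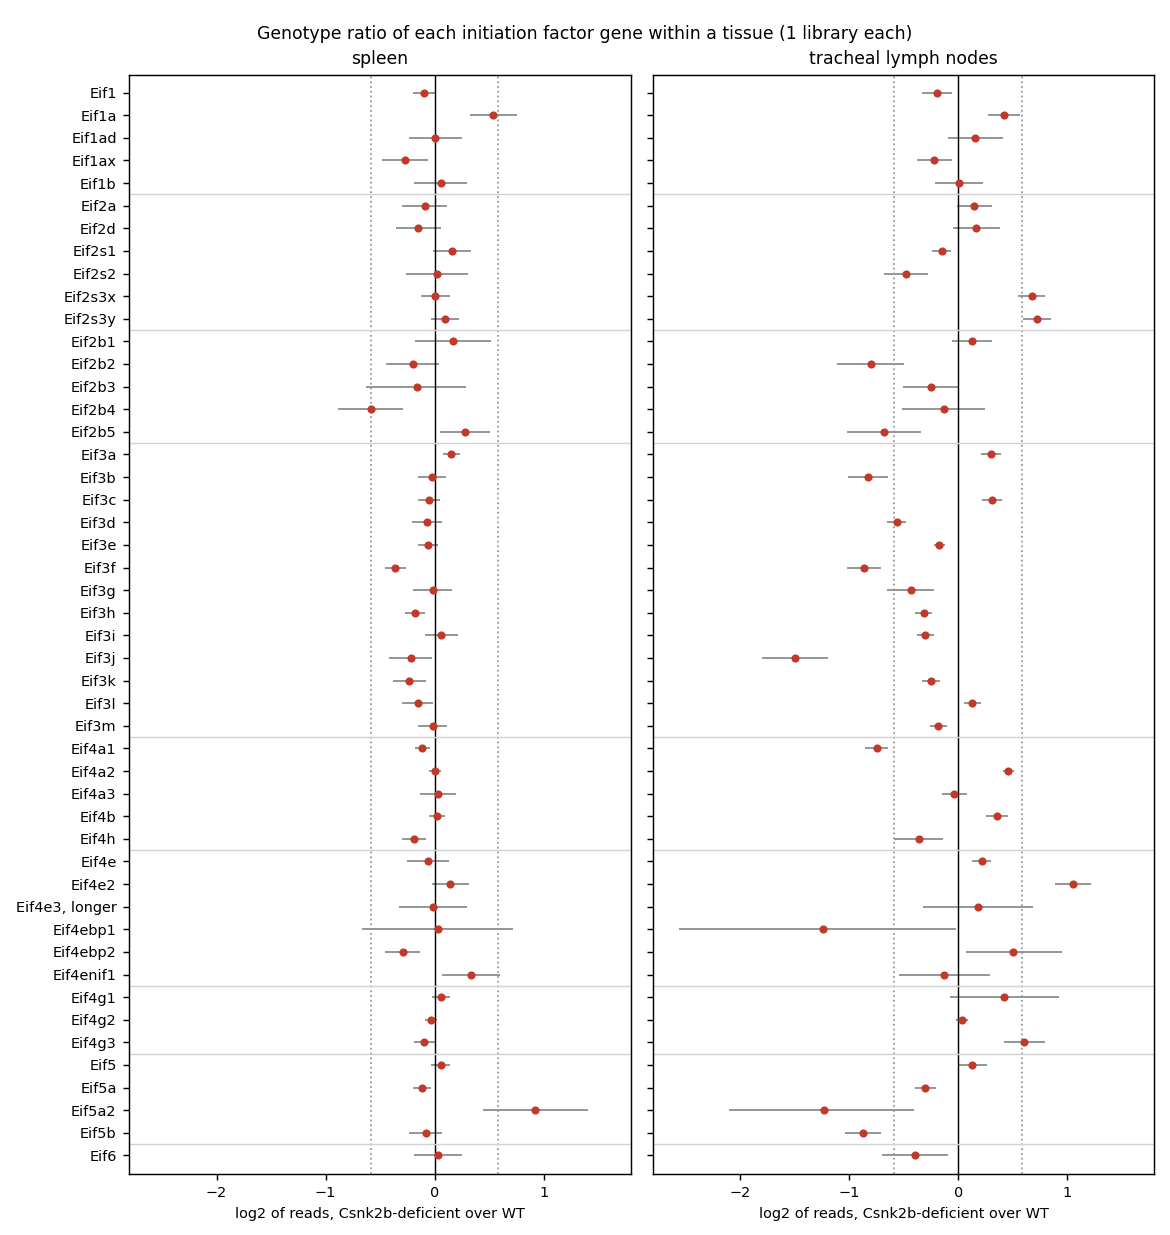
Log2 ratio of Csnk2b-deficient over WT Tregs for 48 tested members (all but the shorter Eif4e3 listing), in the spleen and in the nodes, with bars for the exact 95% counting intervals and dotted lines at 1.5-fold. Spleen ratios crowd around 0, and lymph node ratios spread from Eif3j, the lowest point, to Eif4e2, the highest.

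eIF3, the large scaffold on the small ribosomal subunit, had lower values in both tissues for a larger share of its members than any other of the 9 role groups. Of its 13 subunits, 9 (69.2%) had lower levels in Csnk2b-deficient Tregs in both tissues and 1 had higher levels in both. The shares over all genes were 29.2% and 27.5%. Another 3 subunits were mixed, and the median log2 fold change was -0.22. These counts go by direction only. Of the 9, Eif3f, Eif3h, Eif3j and Eif3k had counting intervals below 1 in both tissues. The spleen intervals of Eif3b, Eif3d, Eif3e, Eif3g and Eif3m held 1. The test called 0 of the 13. The 36 tested members outside eIF3 had a median of 0.02, with 11 higher and 9 lower in both tissues.

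Eif3f (chromosome 7, 116077931 to 116086465, mm9), an MPN-domain subunit of eIF3, had 1432 exon reads in Csnk2b-deficient and 2508 in WT spleen Tregs, and 535 in Csnk2b-deficient and 871 in WT lymph node Tregs. Both Csnk2b-deficient libraries were below the WT library of their tissue. The ratio was 0.779 (interval 0.729 to 0.831) in the spleen and 0.551 (interval 0.494 to 0.614) in the nodes, and the log2 fold change was -0.61 ± 0.22 (SE; unadjusted p = 0.0177, adjusted p = 0.880). The ratio did not reach the 1.5-fold mark in the spleen and passed it in the nodes.

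Eif3j (chromosome 2, 121854282 to 121882334), a loosely bound subunit and CK2 substrate that helps ribosomal subunits to separate, had 359 exon reads in Csnk2b-deficient and 570 in WT spleen Tregs, and 126 in Csnk2b-deficient and 318 in WT lymph node Tregs. Again both Csnk2b-deficient libraries were the lower of their tissue, by far more in the nodes. The ratio was 0.859 (interval 0.751 to 0.982) in the spleen and 0.355 (interval 0.287 to 0.438) in the nodes, with a log2 fold change of -0.84 ± 0.35 (unadjusted p = 0.0361, adjusted p = 0.890). Only 10.1% of these reads were uniquely placed: 37 in Csnk2b-deficient and 55 in WT spleen Tregs, and 12 in Csnk2b-deficient and 34 in WT lymph node Tregs. On uniquely placed reads the change was -0.85 (adjusted p = 0.908). RefSeq names a near copy, listed in the files as Gm9781, which had 9 and 2 reads in Csnk2b-deficient spleen and lymph node Tregs and 8 and 14 in WT, so how reads were shared between copies leaves the Eif3j count uncertain.

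Eif3b, a core subunit, and Eif3d showed a different pattern, level in the spleen and lower in the nodes. Eif3b had 849 exon reads in Csnk2b-deficient and 1176 in WT spleen Tregs, and 416 in Csnk2b-deficient and 661 in WT lymph node Tregs. Its ratio was 0.985 (interval 0.900 to 1.08) in the spleen and 0.565 (interval 0.498 to 0.639) in the nodes (log2 fold change -0.42 ± 0.25, adjusted p = 0.890). Eif3d, the subunit that can itself bind some caps, had 710 reads against 1015 in the spleen and 1805 against 2391 in the nodes, Csnk2b-deficient against WT, with ratios of 0.954 and 0.677 (log2 fold change -0.32 ± 0.21, adjusted p = 0.890).

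Eif3h, the most abundant member in the spleen, had 1480 exon reads in Csnk2b-deficient and 2287 in WT spleen Tregs, and 2602 in Csnk2b-deficient and 2907 in WT lymph node Tregs. Its ratios were 0.883 (interval 0.826 to 0.943) and 0.803 (interval 0.761 to 0.847), with a log2 fold change of -0.25 ± 0.18 (adjusted p = 0.890). Eif3e, the most abundant in the nodes, had 1670 reads against 2376 in the spleen and 5594 against 5651 in the nodes, with ratios of 0.959 and 0.888. These abundant subunits thus had small differences by genotype in either tissue. Eif3k, Eif3m and Eif3g had ratios of 0.852, 0.987 and 0.989 in the spleen, then 0.842, 0.882 and 0.741 in the nodes.

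The largest subunit gene, Eif3a, was the 1 subunit on the higher side in both tissues, with 2419 exon reads in Csnk2b-deficient and 2966 in WT spleen Tregs, and 2457 in Csnk2b-deficient and 1790 in WT lymph node Tregs. Its ratios were 1.11 (interval 1.05 to 1.17) and 1.23 (interval 1.16 to 1.31). Eif3c and Eif3l were on the lower side in the spleen, at 0.964 and 0.898, and on the higher side in the nodes, at 1.24 and 1.09. Eif3i was the reverse, at 1.04 and 0.811. The subunits of this one complex therefore did not share a direction in the nodes.

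The eIF2 group had no member with lower levels in both tissues, and the test called 0 of 6. It holds the subunit genes of eIF2, which carries the initiator tRNA, and also Eif2a and Eif2d, placed there by name. The gamma subunit has a pair of genes in the mouse, Eif2s3x on the X chromosome (91434046 to 91458201) and Eif2s3y on the Y chromosome (346986 to 365290). Eif2s3y had 871 exon reads in Csnk2b-deficient and 1112 in WT spleen Tregs, and 1431 in Csnk2b-deficient and 776 in WT lymph node Tregs. Eif2s3x had 809 exon reads in Csnk2b-deficient and 1099 in WT spleen Tregs, and 1454 in Csnk2b-deficient and 817 in WT lymph node Tregs. Both genes were level by genotype in the spleen and higher in Csnk2b-deficient lymph node Tregs.

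For Eif2s3y the ratios were 1.07 (interval 0.976 to 1.17) in the spleen and 1.65 (interval 1.51 to 1.81) in the nodes (log2 fold change 0.41 ± 0.23, adjusted p = 0.890). For Eif2s3x they were 1.00 (interval 0.916 to 1.10) and 1.60 (interval 1.46 to 1.74) (log2 fold change 0.34 ± 0.23, adjusted p = 0.890). The Y copy supplied 51.8% and 49.6% of the pair's reads in Csnk2b-deficient spleen and lymph node Tregs, and 50.3% and 48.7% in WT. All Eif2s3y reads and 70.5% of Eif2s3x reads were uniquely placed. On unique reads the Y copy's share was 64.5% and 56.8% in Csnk2b-deficient spleen and lymph node Tregs, and 62.4% and 52.2% in WT, and the Eif2s3x ratio in the nodes was 1.37, under the 1.5-fold mark. The balance of the copies thus depends on the reads used.

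Of the other Y-linked genes, Kdm5d had 539 and 338 reads in Csnk2b-deficient spleen and lymph node Tregs against 721 and 201 in WT, with a ratio of 1.51 in the nodes. Uty had 355 and 477 against 364 and 262, with a ratio of 1.63 there. Ddx3y had 1383 and 1693 against 1641 and 1274, with a ratio of 1.19. All 3 were thus higher in Csnk2b-deficient lymph node Tregs, by differing amounts, and the part of the animals' sex was not tested.

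Eif2s2, the beta subunit and a CK2 substrate, had 183 exon reads in Csnk2b-deficient and 246 in WT spleen Tregs, and 366 in Csnk2b-deficient and 456 in WT lymph node Tregs. Its ratios were 1.01 (interval 0.833 to 1.23) and 0.720 (interval 0.626 to 0.828), with a log2 fold change of -0.23 ± 0.29 (adjusted p = 0.923). Of its reads 17.6% were uniquely placed, with 37 and 64 such reads in Csnk2b-deficient spleen and lymph node Tregs against 39 and 80 in WT, or ratios of 1.29 and 0.717. Eif2s1, the alpha subunit that the stress kinases phosphorylate, had 476 exon reads in Csnk2b-deficient and 581 in WT spleen Tregs, and 2052 in Csnk2b-deficient and 2043 in WT lymph node Tregs, with ratios of 1.12 and 0.901. Eif2a and Eif2d, which serve non-canonical initiation despite their names, had ratios of 0.938 and 0.902 in the spleen, then 1.11 and 1.12 in the nodes.

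eIF2B, the exchange factor that reactivates eIF2, has 5 subunit genes, of which 3 were lower in both tissues, 1 higher in both and 1 mixed. Eif2b2 (chromosome 12, 86560431 to 86567578), the beta subunit, had 229 exon reads in Csnk2b-deficient and 359 in WT spleen Tregs, and 149 in Csnk2b-deficient and 233 in WT lymph node Tregs. Its ratio was 0.870 (interval 0.734 to 1.03) in the spleen and 0.574 (interval 0.464 to 0.708) in the nodes (log2 fold change -0.50 ± 0.34, adjusted p = 0.890). Eif2b4, the delta subunit, was the member furthest on the lower side in the spleen, with 140 exon reads in Csnk2b-deficient and 287 in WT spleen Tregs, and 119 in Csnk2b-deficient and 117 in WT lymph node Tregs, or ratios of 0.665 (interval 0.540 to 0.817) and 0.912 (interval 0.701 to 1.19).

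Eif2b5, the catalytic epsilon subunit, went in opposite directions in the 2 tissues, with 298 exon reads in Csnk2b-deficient and 335 in WT spleen Tregs, and 126 in Csnk2b-deficient and 181 in WT lymph node Tregs. Its ratios were 1.21 (interval 1.03 to 1.42) and 0.624 (interval 0.493 to 0.788). Eif2b1, the alpha subunit, had 126 reads against 153 in the spleen and 543 against 445 in the nodes, Csnk2b-deficient against WT, and Eif2b3, the gamma subunit, had 68 reads against 104 in the spleen and 247 against 263 in the nodes. Neither Eif2b1 nor Eif2b3 had a counting interval off 1 in either tissue.

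eIF1 and eIF1A guide the scanning ribosome to the right start codon. Eif1a (chromosome 18, 46757358 to 46769879), one of a pair of eIF1A genes, had 367 exon reads in Csnk2b-deficient and 345 in WT spleen Tregs, and 955 in Csnk2b-deficient and 639 in WT lymph node Tregs. Its ratios of 1.45 (interval 1.25 to 1.69) and 1.34 (interval 1.21 to 1.48) were above 1 in both tissues, and the log2 fold change was 0.48 ± 0.23 (adjusted p = 0.890). Its X-linked partner Eif1ax had 307 exon reads in Csnk2b-deficient and 505 in WT spleen Tregs, and 614 in Csnk2b-deficient and 640 in WT lymph node Tregs, with ratios below 1 in both, 0.829 (interval 0.717 to 0.957) and 0.861 (interval 0.769 to 0.963). The partners therefore lay on opposite sides by genotype, and neither was called.

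Of the pair's reads, Eif1a supplied 54.5% (exact 95% interval 50.6 to 58.3) in Csnk2b-deficient spleen Tregs and 40.6% (37.3 to 44.0) in WT spleen Tregs. In the nodes it supplied 60.9% (58.4 to 63.3) of the reads in Csnk2b-deficient Tregs and in WT Tregs 639 of 1279 (interval 47.2% to 52.7%). The share was higher in the Csnk2b-deficient library of each tissue by more than counting error, with 1 library per genotype and tissue. Eif1, the start codon gatekeeper and the most abundant of this group, had 1180 reads against 1717 in the spleen and 903 against 926 in the nodes, with ratios of 0.937 and 0.875 and 47.1% of reads uniquely placed. Eif1b, its paralog, and Eif1ad, which acts in small-subunit maturation, had ratios of 1.04 and 1.00 in the spleen, then 1.00 and 1.11 in the nodes.

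eIF4A is the helicase that opens the leader of the messenger RNA, and its 2 cytoplasmic genes differed in direction in the nodes. Eif4a1 (chromosome 11, 69480438 to 69485925), the main form in growing cells, had 2580 exon reads in Csnk2b-deficient and 3802 in WT spleen Tregs, and 1152 in Csnk2b-deficient and 1735 in WT lymph node Tregs. Eif4a2 (chromosome 16, 23107517 to 23114209), its close paralog, had 4185 exon reads in Csnk2b-deficient and 5697 in WT spleen Tregs, and 8317 in Csnk2b-deficient and 5420 in WT lymph node Tregs. In the nodes the Csnk2b-deficient library had fewer Eif4a1 reads and more Eif4a2 reads than WT after scaling, while the spleen libraries differed little.

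For Eif4a1 the ratios were 0.925 (interval 0.880 to 0.973) in the spleen and 0.596 (interval 0.552 to 0.642) in the nodes (log2 fold change -0.43 ± 0.21, adjusted p = 0.890). For Eif4a2 they were 1.00 (interval 0.962 to 1.04) and 1.38 (interval 1.33 to 1.42) (log2 fold change 0.23 ± 0.18, adjusted p = 0.893). Eif4a2 supplied 61.9% of the pair's reads in Csnk2b-deficient and 60.0% in WT spleen Tregs, and 87.8% in Csnk2b-deficient and 75.8% in WT lymph node Tregs. Of Eif4a1 reads 27.5% were uniquely placed, and on those its ratio in the nodes was 0.704, short of the 1.5-fold mark. On unique reads alone the Eif4a2 share was 84.4% in Csnk2b-deficient and 83.1% in WT spleen Tregs, and 96.1% in Csnk2b-deficient and 92.7% in WT lymph node Tregs, so the size of the shift depends on the reads used.

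The helicase cofactors Eif4b and Eif4h had ratios of 1.01 and 0.878 in the spleen, then 1.28 and 0.779 in the nodes. Eif4b had 2534 exon reads in Csnk2b-deficient and 3409 in WT spleen Tregs, and 1856 in Csnk2b-deficient and 1300 in WT lymph node Tregs. Eif4h was on the lower side in both tissues, with 1071 reads against 1664 in the spleen and 304 against 350 in the nodes, Csnk2b-deficient against WT. Eif4a3, which belongs to the exon junction complex rather than to initiation, had ratios of 1.02 and 0.977, both with intervals that hold 1.

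Among the cap-binding genes, Eif4e2 had the highest ratio in the nodes. It encodes 4EHP, a cap-binding protein that does not recruit eIF4G and represses bound messages. Eif4e2 (chromosome 1, 89110489 to 89137063) had 508 exon reads in Csnk2b-deficient and 627 in WT spleen Tregs, and 1026 in Csnk2b-deficient and 444 in WT lymph node Tregs. Scaled to the library, these were 87.9 CPM in Csnk2b-deficient and 79.5 CPM in WT spleen Tregs, and 225 CPM in Csnk2b-deficient and 109 CPM in WT lymph node Tregs. The Csnk2b-deficient lymph node library was the highest of the 4, and the WT lymph node library came next.

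The Eif4e2 ratio was 1.11 (interval 0.981 to 1.24) in the spleen and 2.07 (interval 1.85 to 2.32) in the nodes. The joint log2 fold change was 0.60 ± 0.27 (unadjusted p = 0.0473, adjusted p = 0.890). All of its reads were uniquely placed. Eif4e, the main cap-binding factor, had 378 exon reads in Csnk2b-deficient and 538 in WT spleen Tregs, and 2498 in Csnk2b-deficient and 1930 in WT lymph node Tregs, with ratios of 0.958 and 1.16. Of the reads of both genes, Eif4e2 thus supplied 57.3% in Csnk2b-deficient and 53.8% in WT spleen Tregs, and 29.1% in Csnk2b-deficient and 18.7% in WT lymph node Tregs.

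The 4E-binding proteins hold eIF4E away from eIF4G unless mTORC1 phosphorylates them. Eif4ebp2 had 516 exon reads in Csnk2b-deficient and 862 in WT spleen Tregs, and 114 in Csnk2b-deficient and 72 in WT lymph node Tregs. Its ratio was on the lower side in the spleen, at 0.816 (interval 0.731 to 0.912), and on the higher side in the nodes, at 1.42 (interval 1.05 to 1.94). Eif4ebp1 was scarce, with 33 exon reads in Csnk2b-deficient and 44 in WT spleen Tregs, and 9 in Csnk2b-deficient and 19 in WT lymph node Tregs, and its ratio in the nodes, 0.425 (interval 0.169 to 0.986), rests on those few reads. Eif4enif1, the transporter that takes eIF4E to the nucleus and to P-bodies, had 226 reads against 244 in the spleen and 99 against 97 in the nodes, with ratios of 1.26 and 0.915.

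The longer Eif4e3 listing had 149 reads against 205 in the spleen and 77 against 61 in the nodes, Csnk2b-deficient against WT, with intervals that hold 1 in both tissues. The shorter listing had 37 reads in Csnk2b-deficient and 15 in WT spleen Tregs and 0 against 3 in the nodes, where no fold is given. It was 1 of the 2 members past 1.5-fold on the higher side in the spleen, and none of its reads was uniquely placed.

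eIF4G links the cap complex to the ribosome, and its 3 genes had ratios between 0.935 and 1.04 in the spleen. Eif4g3, a paralog of the main scaffold, had 1454 exon reads in Csnk2b-deficient and 2120 in WT spleen Tregs, and 623 in Csnk2b-deficient and 367 in WT lymph node Tregs. Its ratio was 0.935 (interval 0.874 to 1.00) in the spleen and 1.52 (interval 1.34 to 1.74) in the nodes. Eif4g2, which encodes DAP5, a form without an eIF4E-binding site, had 5020 reads against 7016 in the spleen and 6630 against 5804 in the nodes, with ratios of 0.976 and 1.02. Eif4g1, the main scaffold, had ratios of 1.04 (interval 0.986 to 1.10) and 1.34 (interval 0.951 to 1.89).

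Among the late-acting factors, Eif5b and Eif5a2 were past 1.5-fold on the lower side in the nodes. Eif5b (chromosome 1, 38054855 to 38112424), the GTPase that joins the ribosomal subunits, had 609 exon reads in Csnk2b-deficient and 879 in WT spleen Tregs, and 485 in Csnk2b-deficient and 796 in WT lymph node Tregs. Its ratio was 0.945 (interval 0.851 to 1.05) in the spleen and 0.547 (interval 0.487 to 0.613) in the nodes (log2 fold change -0.48 ± 0.26, adjusted p = 0.890). Eif5, the GTPase-activating factor and a CK2 substrate, had 2030 exon reads in Csnk2b-deficient and 2665 in WT spleen Tregs, and 1033 in Csnk2b-deficient and 847 in WT lymph node Tregs. It was close to level in both tissues, with ratios of 1.04 (interval 0.980 to 1.10) and 1.09 (interval 0.998 to 1.20) and a log2 fold change of 0.09 ± 0.19 (adjusted p = 0.954).

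The 3 named CK2 substrates thus had log2 fold changes of -0.84 ± 0.35 for Eif3j, -0.23 ± 0.29 for Eif2s2 and 0.09 ± 0.19 for Eif5, and none was called. Eif5a, whose protein carries hypusine and helps ribosomes through difficult stretches, had 1835 exon reads in Csnk2b-deficient and 2712 in WT spleen Tregs, and 1631 in Csnk2b-deficient and 1804 in WT lymph node Tregs, with ratios of 0.923 and 0.811. Its paralog Eif5a2 had few reads, 89 reads against 64 in the spleen and 19 against 40 in the nodes, Csnk2b-deficient against WT, with ratios of 1.90 (interval 1.36 to 2.66) and 0.426 (interval 0.233 to 0.753) on opposite sides of 1. Eif6, which holds the large subunit apart, had 307 reads against 410 in the spleen and 172 against 203 in the nodes, with ratios of 1.02 and 0.760 (interval 0.617 to 0.936).

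**Figure D3:**
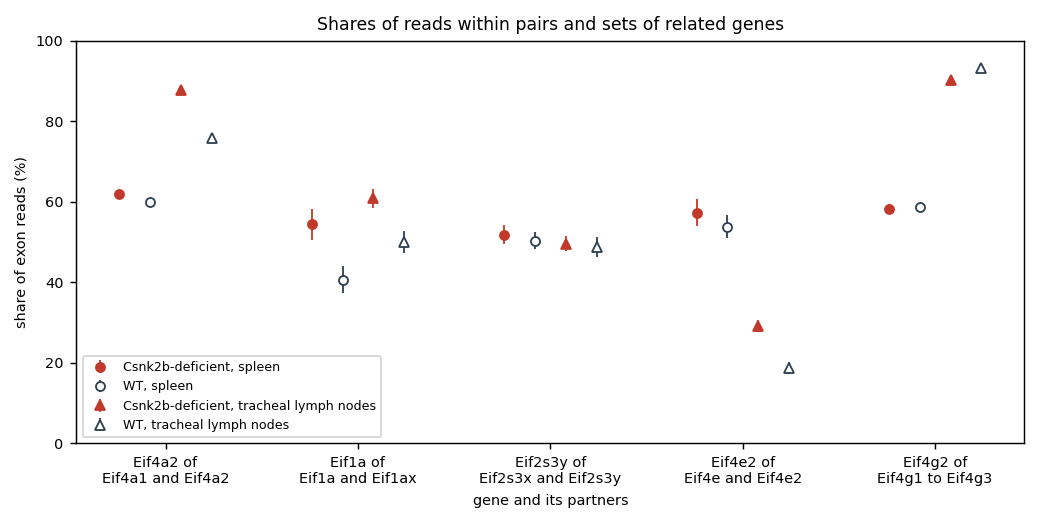
Share of a paralog family's exon reads held by 1 member in each library, in percent, with exact 95% counting intervals, for the eIF4A, eIF1A, eIF2 gamma, eIF4E and eIF4G genes, with Csnk2b-deficient libraries as filled and WT libraries as open marks. The shares are of all exon reads, multiply placed ones included, and are not scaled to exon length. On these the Eif2s3y share runs from 48.7% to 51.8%, and the Eif4a2 and Eif4g2 shares are higher in the nodes than in the spleen. On unique reads the Eif2s3y share runs from 52.2% to 64.5%.

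More members were called by tissue than by genotype. In the same edgeR fit, 23 of 49 members (46.9%) were higher and 6 (12.2%) lower in the nodes than in the spleen at an adjusted p below 0.05, against 23.3% and 22.2% of all genes. The median log2 difference was 0.48 for the members and -0.17 for all genes. The members had a higher median RPKM than all genes in each library, and genes with more reads are called more readily. The shares called are thus not matched for expression. Of the eIF3 subunits 8 were higher and 1 lower, and of eIF4G 1 was higher and 2 lower. Of the eIF2 group 5 were higher, Eif2a among them, and 0 lower. Since the kits are not tied to libraries, these differences cannot be told apart from kit effects.

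Eif4e rose most among the members, with 2498 reads in Csnk2b-deficient and 1930 in WT lymph node Tregs, against 378 and 538 in the spleen (log2 difference 2.93 ± 0.21, adjusted p = 3.57e-06). Eif2s1 was higher by 2.61 ± 0.21, Eif2b1 by 2.47 ± 0.29, Eif3i by 2.46 ± 0.21 and Eif3k by 2.33 ± 0.20 on the log2 scale. Eif3e was higher by 2.14 ± 0.18 and Eif1a by 1.78 ± 0.24. These members belong to the eIF4E, eIF2, eIF2B, eIF3 and eIF1 groups. Of the 5 eIF2B genes, 2 were called higher and 3 were not called, with a median log2 difference of 0.03.

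Eif4g1 (chromosome 16, 20668386 to 20692957) fell most. It had 88 reads in Csnk2b-deficient and 59 in WT lymph node Tregs, against 2137 and 2794 in the spleen, or 2.67 and 2.00 RPKM against 51.1 and 49.0. The log2 difference was -4.43 ± 0.25 (adjusted p = 1.55e-06), and both genotypes showed it. Its paralog Eif4g3 had a log2 difference of -1.23 ± 0.24, while Eif4g2 was higher in the nodes by 0.71 ± 0.16 (adjusted p = 0.00447).

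Of the reads of the 3 eIF4G genes, Eif4g2 supplied 90.3% in Csnk2b-deficient and 93.2% in WT lymph node Tregs, against 58.3% and 58.8% in the spleen. Eif4g1 supplied 1.20% in Csnk2b-deficient and 0.947% in WT lymph node Tregs, against 24.8% and 23.4% in the spleen. The other members that fell were Eif4ebp2 (-2.23 ± 0.32), Eif4h (-1.39 ± 0.23), Eif3f (-0.83 ± 0.22, adjusted p = 0.00938) and Eif5 (-0.67 ± 0.20, adjusted p = 0.0156). Across the 49 members the tissue difference had a Pearson correlation of -0.16 and a Spearman correlation of -0.14 with log2 exon length, over points that share the same 4 libraries.

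**Figure D4:**
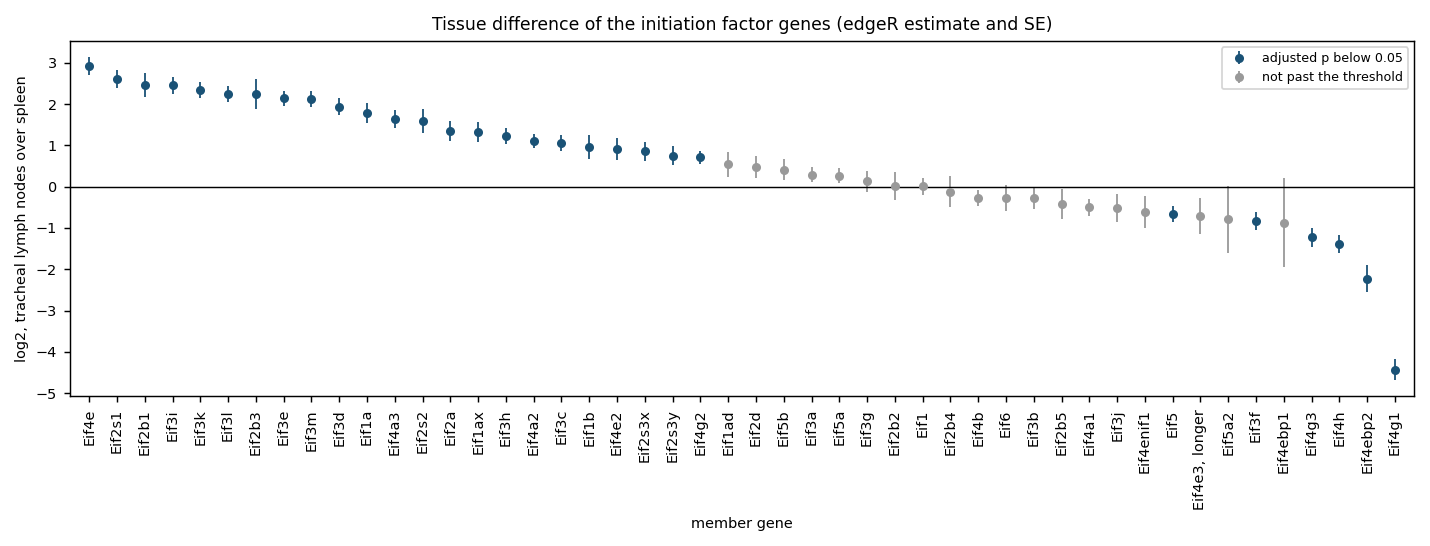
Log2 difference of lymph node over spleen for 48 tested members (all but the shorter Eif4e3 listing), with SE bars, ordered by size and coloured where the adjusted p is below 0.05. Eif4e is at the top at 2.93 and Eif4g1 at the bottom at -4.43.

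Other genes of the pathway were described in the same fit. Of 15 tested genes of the integrated stress response, which is driven by kinases acting on eIF2 alpha, 0 were called by genotype, with a median log2 fold change of -0.20 and 1 at an unadjusted p below 0.05, Ddit4. Ddit4, an mTORC1 inhibitor induced by stress, had 715 and 22 reads in Csnk2b-deficient spleen and lymph node Tregs, against 1461 and 35 in WT (log2 fold change -0.67 ± 0.28, adjusted p = 0.890). Of 13 genes of mTORC1 and MNK signalling, 0 were called (median -0.06), and of 13 initiation helpers outside the Eif names, such as poly(A)-binding proteins, 0 were called (median -0.07). These 2 lists had 0 genes at an unadjusted p below 0.05.

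Among 9 tested genes of elongation and termination 0 were called (median 0.03), and 1, the elongation factor gene Eef1g, had an unadjusted p below 0.05. Eef1g had 2490 and 6180 reads in Csnk2b-deficient spleen and lymph node Tregs, against 4560 and 6937 in WT (log2 fold change -0.37 ± 0.17, adjusted p = 0.890). Of the 3 tested argonaute genes with old Eif2c names, 0 were called (median -0.38), and Eif2c2, which encodes the microRNA effector AGO2, had -0.56 ± 0.23 (adjusted p = 0.890). By tissue, 2 of the 15 stress-response genes were called higher and 6 lower in the nodes, against 23.3% and 22.2% of all genes. The counts were 1 and 6 of the 13 signalling genes, 5 and 4 of the 13 helpers, 5 and 1 of the 9 elongation and termination genes, and 0 and 3 of the 3 argonaute genes.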

How the data were processed

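Tables of exon read counts per gene were deposited for each library, with chromosome, start, end and exon length per the file headers. The submitters' processing notes name CASAVA 1.8.2 and mm9. An aligner, an annotation and a strand setting were not given in the sources used here. Total exon read counts of the authors, which include reads with several placements, were used. Of 37583 features, 9551 lacked an exon length and were left out.

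The test was the robust quasi-likelihood test of edgeR 4.0.16 (R 4.3.3) on tissue plus genotype, after filterByExpr and TMM scaling, with Benjamini-Hochberg adjustment over 11113 genes and a threshold of 0.05. The fit has 1 residual degree of freedom and a biological coefficient of variation of 30.0%. Each SE is the log2 fold change divided by the root of F. RPKM was recomputed from reads, exon length and scaled library size, in place of the authors' RPKM, which is written with decimal commas. Replicate 1 is the spleen and replicate 2 the nodes per the labels, so the tissue term is the replicate block. Same-numbered libraries deviated together from their genotype means (correlation 0.783). Libraries of 1 tissue differed by a chi-square per degree of freedom of 7.96 (spleen) and 31.5 (nodes).

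Per role group, the text gives values for the most abundant member and those of smallest unadjusted p, for CK2 substrates, the X and Y pair, members under the filter and extreme ratios. The members and lists were chosen with earlier results of these data known. Alternatives were other scalings, filters, uniquely placed reads, DESeq2 1.42.0, limma-voom 3.58.1, no block and left-out libraries.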

Additional observations from a re-analysis of the deposited data

Results flagged for a closer look

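For 4 members (8.16%, against 5.59% of all genes tested) the genotype ratio went in opposite directions in the tissues, with counting intervals off 1 in each, and the difference was not tested because each genotype and tissue had 1 library. These shares are not matched for expression. Eif2b5 had a ratio of Csnk2b-deficient over WT Tregs of 1.21 in the spleen and 0.624 in the nodes. Eif4ebp2 had 0.816 in the spleen and 1.42 in the nodes. Eif5a2 had 1.9 in the spleen and 0.426 in the nodes, the second on 19 reads in Csnk2b-deficient and 40 in WT Tregs. Eif3l had 0.898 in the spleen and 1.09 in the nodes.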

How the results depend on the processing

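Members called by genotype numbered 0 in each direction under all alternatives run. Over all genes, 14 were called higher and 2 lower with edgeR. Median-of-ratios size factors gave 4 higher and 0 lower, upper-quartile scaling 10 and 1, no filter 79 and 32, 5 CPM as the filter 10 and 1, uniquely placed reads 7 and 0, DESeq2 35 and 15, and limma-voom 42 and 22. Without the replicate block the counts were 0 and 0, and the median log2 fold change of the members was -0.11, against -0.01 with the block. At an unadjusted p below 0.05 edgeR had 542 genes, or 415 under median-of-ratios scaling, 420 on uniquely placed reads and 29 without the block.

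Leaving out 1 library allows no tissue term, so tissue enters the genotype value in those fits. They called 0 to 1 genes higher and 0 lower. The members' median was -0.27 without Csnk2b-deficient replicate 2, 0.17 without Csnk2b-deficient replicate 1, -0.24 without WT replicate 1 and 0.37 without WT replicate 2. Without Csnk2b-deficient replicate 2 the log2 fold change turned to -0.058 for Eif4e2, -0.61 for Eif1a, 0.013 for Eif4a1, -0.46 for Eif4a2, -0.095 for Eif2s3y and -0.24 for Eif2s3x. Without WT replicate 1 it turned to -0.18 for Eif1a and -0.038 for Eif4a2. Without Csnk2b-deficient replicate 1 it turned to 0.15 for Eif3d, 0.19 for Eif3h, 0.17 for Eif2s2 and -0.28 for Eif5. Without WT replicate 2 it turned to 1.04 for Eif3d, 0.54 for Eif3h, 0.87 for Eif2s2 and -0.20 for Eif5. The opposite ends of these ranges were 1.25 for Eif4e2, 1.67 for Eif1a, -0.85 for Eif4a1, 0.85 for Eif4a2, 0.92 for Eif2s3y, 0.91 for Eif2s3x, -1.49 for Eif3d, -0.92 for Eif3h, -1.12 for Eif2s2 and 0.51 for Eif5. Eif3f ran from -1.19 to -0.07 and Eif3j from -1.45 to -0.24. Over the 9 settings that kept all 4 libraries, the main fit among them, direction was followed for part of the members. It held for Eif1a, Eif2b2, Eif2s2, Eif2s3x, Eif2s3y, Eif3b, Eif3d, Eif3f, Eif3h, Eif3j, Eif4a1, Eif4a2, Eif4e2, Eif5 and Eif5b. Members near 0, such as Eif3l at -0.01, were not followed. The members' median was -0.01 in the main fit and 0.01 under upper-quartile scaling. The adjusted p for Eif3f ran from 0.404 to 0.99999 over the 9 settings. With 1 library per genotype and tissue, depth bounds counting error only.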
